A study of Mus musculus with 8 samples.

Results

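The genes described here encode the non-collagen proteins of the extracellular matrix: adhesive and matricellular glycoproteins, the proteins of elastic fibres and microfibrils, small leucine-rich proteoglycans, large proteoglycans and a protein that helps process procollagen. They were chosen by name from a list of 38 genes, and a gene counted as measured when a probe set of the array named that gene and no other. This held for 37 genes among the 22840 genes tested; the probe set of Fbn2, fibrillin-2, named several genes and was not used here. Fibronectin, tenascins and thrombospondins form or decorate the network on which tumour, stromal and endothelial cells adhere. Fibrillins, fibulins and elastin build microfibrils and elastic fibres, which also hold latent TGF-beta in store. Small leucine-rich proteoglycans such as decorin bind collagen fibrils, and perlecan and agrin belong to basement membranes, the sheets under vessel endothelium.

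Gene expression was measured in 8 MT-ret melanomas, each on 1 whole-transcript array, with no replicate arrays. In MT-ret mice a Ret oncogene under a metallothionein promoter gives rise to melanoma; here pieces of such tumours had been implanted at the ventral flank in C57BL/6N hosts, so that each sample mixes grafted tumour with host tissue. From day 7 the hosts received either an antibody that blocks Ang2, the angiopoietin ligand of the endothelial receptor Tie2 (anti-Ang2, 4 tumours), or the matching isotype control (IgG, 4 tumours), until the primary tumour was resected. The comparison asks which tumour transcripts differed under Ang2 blockade. The labels number the tumours as replicates without naming separate cultures or litters, so p-values measure the spread between these samples. In whole tumour RNA, fewer cells of a type and less RNA per cell cannot be told apart.

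Values are log2 of the authors' deposited intensity, treated as normalized, and differences are anti-Ang2 minus IgG on that scale. Array medians lay between 6.09 and 6.15 log2 units, and the correlation of any pair of arrays over genes, which are no replicates, was 0.967 to 0.988. Melanocytic genes, a check of the labelled tissue, had a list mean of 10.08 log2 units in IgG replicate 1 and of 10.34 to 10.61 in the other 7 tumours. The skeletal muscle list, which marks host muscle, varied most. Its mean was 9.51 in IgG replicate 1 and 8.10 in IgG replicate 2, against 5.98 to 7.48 in the other 6.

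No matrix gene passed the test in either direction. With limma and Benjamini-Hochberg adjustment over all genes, 0 of 37 had an adjusted p under 0.05, where 0% of all genes did, and the smallest adjusted p among the 37 was 0.578, for Cyr61. At an unadjusted limma p under 0.05 there were 4 of 37 (10.8%), against 7.09% of all genes. These were Cyr61, Ctgf and Bgn, higher in anti-Ang2 tumours (3 genes, where 4.09% of all genes were higher at that p), and Ltbp1, lower (1 gene, where 3.00% were lower). The split of all genes at that p, 934 higher and 685 lower, became 743 and 815 when each array was centred on its median, with the same 4 matrix genes. In all, 18 of the 37 had a positive and 19 a negative difference, with a median of -0.0035 beside 0.01 over all genes; median centring made this 15 and 22. The group values did not overlap for 1 of 37, Cyr61, which was higher; 3.74% of all genes had groups that did not overlap, and 2.28% did so with anti-Ang2 higher. Leaving out IgG replicates 1 and 2, the tumours with the most skeletal muscle signal, was a choice made after the values were seen. It left IgG replicates 3 and 4 as the only controls, and replicate 3 was the lowest tumour in 14 of 37 matrix genes. In that fit 6 matrix genes had an unadjusted limma p under 0.05, all higher (Cyr61, Bgn, Fn1, Tnc, Spp1 and Hspg2). Of all genes, 6.06% had such a p (781 higher and 603 lower), and 0 passed adjustment.

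**Figure D1:**
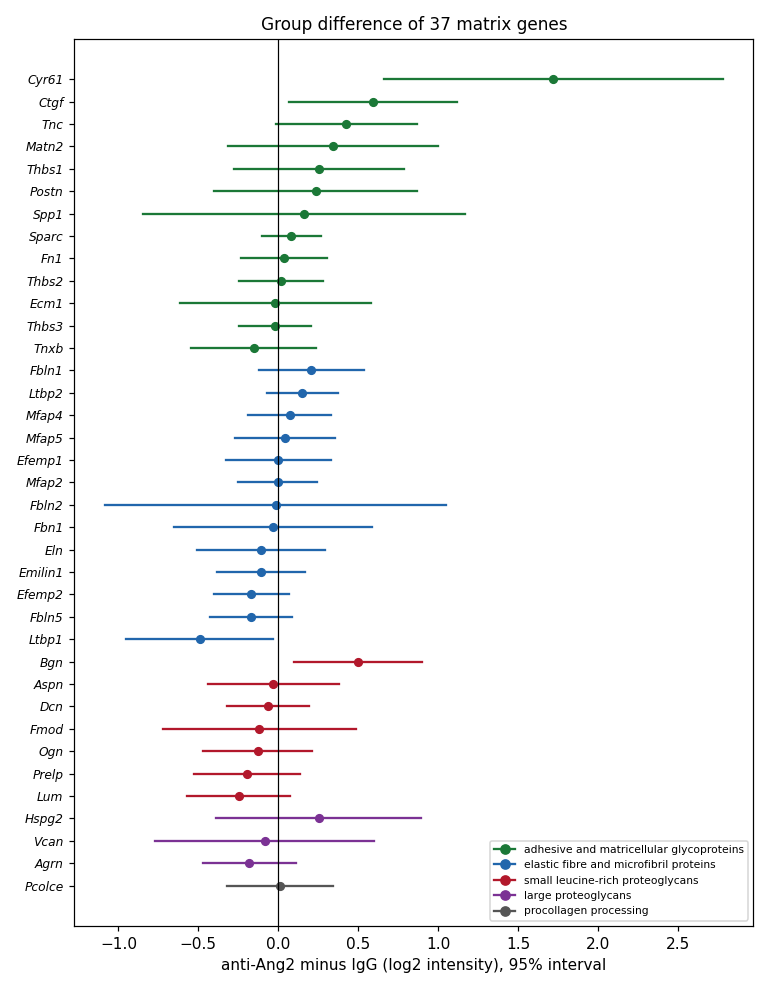
Difference between anti-Ang2 and IgG tumours (log2 intensity, horizontal axis) of each of the 37 matrix genes (vertical axis, coloured by role), with the 95% interval of the limma fit as a bar (4 arrays per group). The intervals of Cyr61, Ctgf and Bgn lie above 0 and that of Ltbp1 below it; the others include 0.

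Cyr61 and Ctgf encode the CCN family proteins CCN1 and CCN2, secreted matricellular proteins that bind integrins and are known to be induced by the YAP and TEAD transcription factors and by serum. Cyr61 (probe set 17410974, chromosome 3) stood at 11.89, 10.56, 9.44 and 9.15 log2 units in anti-Ang2 replicates 1 to 4. In IgG replicates 1 to 4 it stood at 8.93, 8.38, 8.28 and 8.58. Every anti-Ang2 tumour was above every IgG tumour, but the anti-Ang2 tumours themselves spread over 2.74 log2 units, with replicates 1 and 2 far above the other two. The group means were 10.26 ± 1.25 and 8.54 ± 0.29 (SD, n = 4 each).

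Cyr61 differed by 1.72 (95% interval 0.66 to 2.78), or 3.29-fold (1.58 to 6.87). It was the largest positive difference among all 22840 genes, followed by Slc35f1 at 1.45 and Rgs16 at 1.31, and ranked 173 by p. The limma p was 0.00445 before and 0.578 after adjustment, and the two-sided exact permutation p was 0.0286, the smallest that 70 assignments of 4 against 4 tumours allow. Without anti-Ang2 replicate 1 the difference was 1.17 (limma adjusted p = 0.791). In the authors' deposited table, the ratio of linear means for Cyr61 was 4.35 with a p-value of 0.19.

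Ctgf (probe set 17232235, chromosome 10) stood at 9.85, 8.70, 8.55 and 9.23 in anti-Ang2 replicates 1 to 4 and at 8.25, 8.64, 8.48 and 8.58 in the IgG replicates. Its groups overlapped: anti-Ang2 replicate 3 lay below IgG replicates 2 and 4, and the highest tumour was again anti-Ang2 replicate 1. The difference was 0.59 (interval 0.07 to 1.12; fold 1.51; limma p = 0.0308, adjusted p = 0.69; two-sided exact permutation p = 0.0857). Without anti-Ang2 replicate 1 it was 0.34 (limma adjusted p = 0.951), no longer at an unadjusted p under 0.05.

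Because Cyr61 had the largest difference and Bgn the next largest among the members with a promoter in the table used, the 250 bases before their RefSeq starts are shown (GRCm38.p6; Cyr61, now Ccn1, chr3:145649986-145650235, minus strand; Bgn, chrX:73483351-73483600, plus strand), 5′ to 3′, with capitals marking a TEAD motif.
Cyr61: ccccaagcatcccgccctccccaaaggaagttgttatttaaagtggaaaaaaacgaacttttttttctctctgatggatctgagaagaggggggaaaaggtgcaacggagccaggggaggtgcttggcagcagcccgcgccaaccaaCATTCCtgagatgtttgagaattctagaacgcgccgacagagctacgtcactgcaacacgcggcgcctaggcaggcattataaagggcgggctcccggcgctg
Bgn: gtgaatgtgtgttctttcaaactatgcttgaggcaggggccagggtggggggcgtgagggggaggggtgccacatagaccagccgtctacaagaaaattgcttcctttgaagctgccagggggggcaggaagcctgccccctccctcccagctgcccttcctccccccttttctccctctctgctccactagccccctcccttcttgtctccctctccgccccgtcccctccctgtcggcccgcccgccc
Both strands were searched for the TEAD motif CATTCC, the AP-1 motif TGANTCA, the CArG box of serum response factor and the hypoxia response core ACGTG. Cyr61 held 1 match, a CATTCC from 103 to 98 bases before the start, and Bgn held none of the 4. CATTCC is present in 12.6% of 32841 such windows genome-wide. The 28 members with a promoter in the table have 38 windows, of which 3 hold CATTCC (those of Cyr61, Mfap2 and Ogn). TGANTCA is present in 6.75% of all windows and in 3 member windows (Ecm1, Efemp1 and Tnxb). The CArG box is present in 1.47% and in 0 member windows. ACGTG is present in 16.6% and in 5 member windows, of 4 members (Aspn, Efemp2, Fbln1 and Ltbp1). A match is a description of these letters and not a site of binding. Ctgf was not among the promoters used.

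Of 18 other YAP and TEAD target genes measured, 9 were higher and 9 lower (8 and 10 after median centring, 12 and 6 without IgG replicate 1), with a median of 0.0007, and 0 passed adjustment. At an unadjusted limma p under 0.05 there were 2 of the 18 (11.1%), against 7.09% of all genes. Myof, myoferlin, was higher (0.25, SE 0.11) and Fjx1 lower (-0.28, SE 0.11). F3, tissue factor, differed by 0.40 (SE 0.22).

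Cyr61 is also an immediate early gene. A list of 15 such genes, chosen after the values of Cyr61 had been seen, had 12 members higher and 3 lower (11 and 4 after median centring), with a median of 0.16, and 0 passed adjustment (smallest adjusted p = 0.473). Atf3, a stress-induced transcription factor, stood at 10.66, 10.04, 9.94 and 9.70 in anti-Ang2 replicates 1 to 4 and at 8.48, 8.88, 9.52 and 9.36 in IgG replicates 1 to 4. Fos, the AP-1 subunit, stood at 9.18, 9.01, 8.62 and 8.38 in anti-Ang2 and at 8.45, 7.83, 8.07 and 8.50 in IgG tumours. The groups did not overlap for Atf3 and Jun (0.24), 2 of the 15, where 3.74% of all genes had groups that did not overlap. They overlapped for Fos. In Atf3, Jun and Fos anti-Ang2 replicate 1 was the highest tumour, and Jun was lowest of its group in anti-Ang2 replicate 2. The other members at an unadjusted limma p under 0.05 took other orders. Egr1 (0.31) was highest in anti-Ang2 replicate 2. Egr3 (-0.61) was lower in anti-Ang2 tumours, with its lowest value in anti-Ang2 replicate 1. The list mean, relative to that of all 8 arrays, was 0.18, 0.17, 0.13 and -0.14 in anti-Ang2 replicates 1 to 4 and -0.15 to -0.0048 in IgG tumours. Whether these genes bear on the difference of Cyr61 was not tested.

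**Figure D2:**
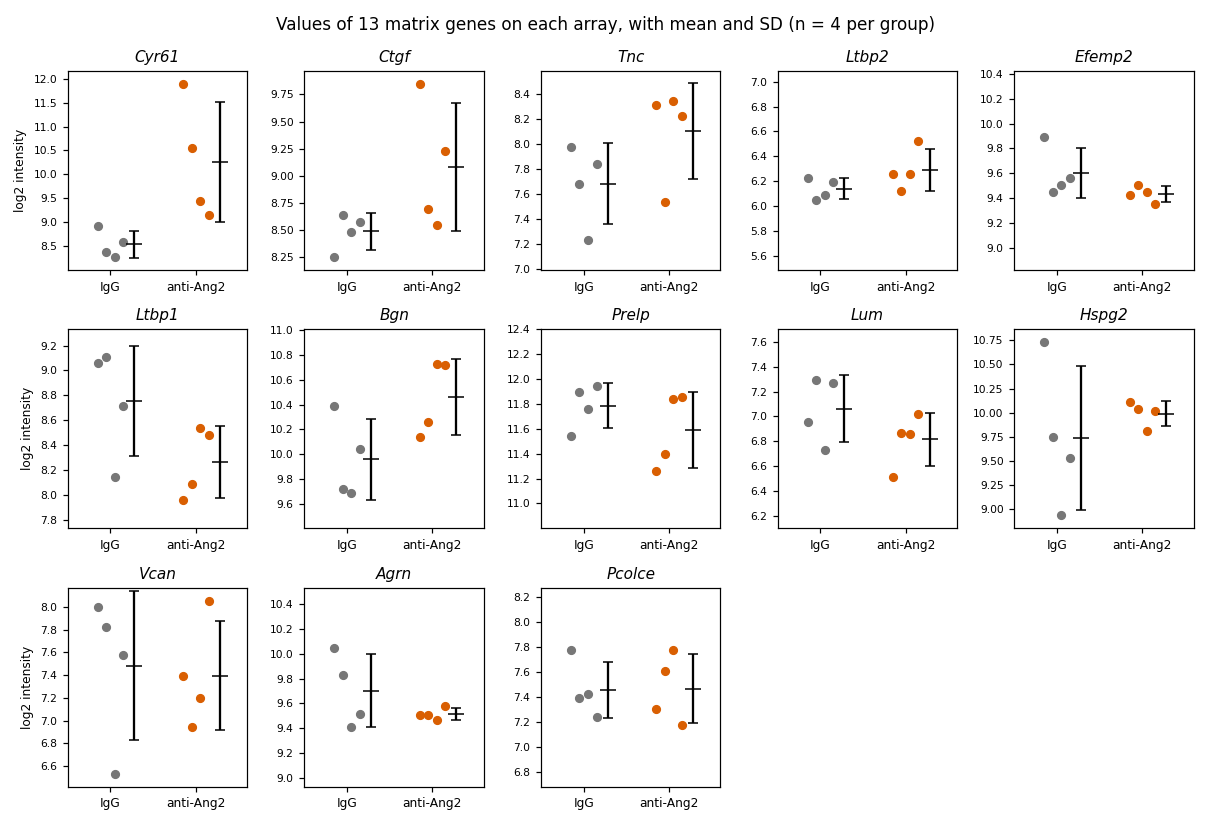
log2 intensity (vertical axis) of 13 matrix genes on each array, with IgG tumours in grey and anti-Ang2 tumours in orange, both in replicate order, and the group mean with its SD beside them (n = 4); the vertical axes differ in position and, for the most variable genes, in span. The groups are separate for Cyr61 and overlap for the other 12.

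The adhesive and matricellular glycoproteins, Cyr61 and Ctgf included, had 13 measured members, 10 higher and 3 lower, with a median of 0.16 (9 and 4 after median centring, 7 and 6 without IgG replicate 3, where the median was 0.03). Tnc, tenascin C, a glycoprotein of remodelling stroma, stood at 8.32, 7.54, 8.35 and 8.22 in anti-Ang2 replicates 1 to 4. In the IgG replicates it stood at 7.98, 7.68, 7.23 and 7.84. Apart from anti-Ang2 replicate 2, every anti-Ang2 tumour was above every IgG tumour. The difference was 0.43 (interval -0.02 to 0.87; limma p = 0.0576, adjusted p = 0.715; two-sided exact permutation p = 0.143), and 0.62 without anti-Ang2 replicate 2 (limma p = 0.00372, adjusted p = 0.638).

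Fn1, fibronectin, differed by 0.04 (interval -0.24 to 0.31) and Sparc, a collagen-binding glycoprotein, by 0.08 (-0.10 to 0.27). Thbs2, a thrombospondin that restrains vessel growth, differed by 0.01 (-0.25 to 0.28) and its relative Thbs3 by -0.02 (-0.25 to 0.20). The intervals of these 4 genes exclude a change of 0.5 log2 units in either direction. Thbs1, the other angiogenesis-restraining thrombospondin, differed by 0.25 (-0.28 to 0.78). Its value was 0.50 without anti-Ang2 replicate 2, at an unadjusted limma p under 0.05 (adjusted p = 0.728), and 0.06 without anti-Ang2 replicate 3. Postn, periostin, differed by 0.23 (-0.40 to 0.87), and by 0.03 without IgG replicate 3 to 0.45 without anti-Ang2 replicate 1. Matn2, matrilin-2, differed by 0.34 (-0.31 to 1.00), and by 0.06 without IgG replicate 1 to 0.59 without IgG replicate 2. Tnxb, tenascin X, differed by -0.15 (-0.54 to 0.24) and Ecm1, a glycoprotein of skin and other matrices, by -0.02 (-0.62 to 0.58).

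Spp1, which encodes osteopontin, a secreted integrin ligand of macrophages and tumour cells, had the widest spread of this class next to Cyr61. It stood at 10.45, 9.92, 10.51 and 9.11 in anti-Ang2 replicates 1 to 4 and at 10.76, 10.62, 9.32 and 8.65 in IgG replicates 1 to 4. Each group held both high and low tumours, and the difference of 0.16 had an interval of -0.84 to 1.17, so that a change of up to 1 log2 unit upwards is not excluded.

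Among elastic fibre and microfibril proteins, 5 of 13 measured genes were higher and 8 lower, with a median of -0.02 (4 and 9 after median centring or quantile normalization, 7 and 6 with array weights, 10 and 3 without IgG replicate 1, where the median was 0.09). Ltbp1 (probe set 17339729, chromosome 17), which binds latent TGF-beta to microfibrils, had the largest difference of the class. It stood at 7.96, 8.08, 8.54 and 8.48 in anti-Ang2 replicates 1 to 4 and at 9.06, 9.11, 8.15 and 8.71 in IgG replicates 1 to 4. IgG replicate 3 lay among the anti-Ang2 tumours, and the other 3 IgG tumours lay above all of them. The difference was -0.49 (interval -0.95 to -0.03; fold 0.711; limma p = 0.0386, adjusted p = 0.698; two-sided exact permutation p = 0.114). It was -0.17 without IgG replicates 1 and 2 and -0.69 without IgG replicate 3. Without IgG replicate 2 alone it was -0.38 (limma adjusted p = 0.864).

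Its relative Ltbp2, which does not bind latent TGF-beta, stood at 6.26, 6.12, 6.26 and 6.52 in anti-Ang2 replicates 1 to 4 and at 6.23, 6.05, 6.09 and 6.20 in IgG replicates 1 to 4. The groups overlapped, with a difference of 0.15 (interval -0.07 to 0.37). Efemp2, fibulin-4, needed for elastic fibre assembly, stood at 9.43, 9.51, 9.45 and 9.35 in anti-Ang2 and at 9.89, 9.45, 9.51 and 9.56 in IgG tumours. IgG replicate 1 was the highest, and the difference was -0.17 (interval -0.40 to 0.07) with that tumour and -0.07 without it.

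The fibulins differed from each other in how they varied. Fbln5, which links elastin to cells, differed by -0.17 (interval -0.43 to 0.08), with an SD of 0.06 among IgG and 0.24 among anti-Ang2 tumours. Fbln1 differed by 0.21 (-0.12 to 0.53). Fbln2 had the widest range of all 37 genes within the IgG group, 2.25 log2 units: it stood at 9.27, 8.86, 7.81 and 9.59 in anti-Ang2 and at 9.37, 7.38, 9.22 and 9.63 in IgG tumours. IgG replicate 2 and anti-Ang2 replicate 3 were low and the other 6 lay between 8.86 and 9.63, so the group difference of -0.02 has an interval of -1.08 to 1.05. Fbn1, fibrillin-1, the main microfibril protein, differed by -0.04 (-0.66 to 0.59) and Eln, elastin, by -0.11 (-0.51 to 0.29).

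The microfibril-associated genes Mfap2 (-0.0035), Mfap4 (0.07) and Mfap5 (0.04), the elastic fibre glycoprotein gene Emilin1 (-0.11) and Efemp1, fibulin-3 (0.0005), all had intervals within 0.5 log2 units of 0. Efemp1 was the 1 member of the 37 with a mean below that of the median gene, and all 37 lay above the 25th percentile of gene means.

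The small leucine-rich proteoglycans parted into Bgn, which was higher in anti-Ang2 tumours, and 6 genes with small negative differences. The class median was -0.12; 6 of 7 were lower also after quantile normalization and median centring, but 4 of 7 without IgG replicate 1. Bgn (probe set 17535558, chromosome X) encodes biglycan, which binds collagen and, when released, activates Toll-like receptors on macrophages. It stood at 10.14, 10.26, 10.72 and 10.72 in anti-Ang2 replicates 1 to 4 and at 10.39, 9.72, 9.69 and 10.04 in IgG replicates 1 to 4. IgG replicate 1 lay above anti-Ang2 replicates 1 and 2, and the other IgG tumours lay below all anti-Ang2 tumours. The difference was 0.50 (interval 0.10 to 0.90; fold 1.41; limma p = 0.0189, adjusted p = 0.67; two-sided exact permutation p = 0.114), and 0.64 without IgG replicate 1 (limma adjusted p = 0.441).

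Lum, lumican, a fibril-binding relative of biglycan, stood at 6.51, 6.87, 6.86 and 7.02 in anti-Ang2 replicates 1 to 4 and at 6.95, 7.29, 6.73 and 7.27 in IgG replicates 1 to 4. Its difference of -0.25 had an interval of -0.57 to 0.08 (limma adjusted p = 0.782). Prelp, which links matrix to basement membrane, stood at 11.26, 11.40, 11.84 and 11.85 in anti-Ang2 and at 11.54, 11.89, 11.76 and 11.94 in IgG tumours, a difference of -0.20 (-0.53 to 0.13). In both genes the groups overlapped, and the lowest tumour was anti-Ang2 replicate 1. Dcn, decorin, the closest relative of biglycan, differed by -0.06 (-0.32 to 0.19), Ogn, osteoglycin, by -0.13 (-0.47 to 0.21), Fmod, fibromodulin, by -0.12 (-0.72 to 0.49) and Aspn, asporin, by -0.03 (-0.44 to 0.38).

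The 3 large proteoglycans varied more within the IgG than within the anti-Ang2 group. Hspg2, perlecan, the heparan sulfate proteoglycan of vessel basement membrane, stood between 9.81 and 10.11 in the 4 anti-Ang2 tumours. In IgG replicates 1 to 4 it stood at 10.73, 9.75, 8.93 and 9.53. Its IgG range of 1.79 compares with 0.30 in anti-Ang2, and the difference was 0.25 (interval -0.39 to 0.89), 0.58 without IgG replicate 1 (limma adjusted p = 0.546) and -0.015 without IgG replicate 3. Vcan, versican, a chondroitin sulfate proteoglycan of loose stroma, stood at 7.39, 6.94, 7.20 and 8.05 in anti-Ang2 and at 8.00, 7.82, 6.53 and 7.58 in IgG tumours (-0.09, interval -0.77 to 0.60). Agrn, agrin, stood between 9.47 and 9.58 in anti-Ang2 and at 10.05, 9.83, 9.41 and 9.51 in IgG replicates 1 to 4 (-0.18, interval -0.47 to 0.11).

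Pcolce, which encodes an enhancer of procollagen cleavage, stood at 7.30, 7.61, 7.78 and 7.18 in anti-Ang2 and at 7.77, 7.39, 7.43 and 7.24 in IgG tumours. The groups overlapped, with a difference of 0.0087 (interval -0.32 to 0.34; limma adjusted p = 0.994).

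The matrix genes had wider ranges among tumours of 1 group than genes in general. Their median range was 0.61 in IgG and 0.53 in anti-Ang2 tumours, against 0.32 in either group over all genes, and the median absolute difference was 0.13 against 0.09. The 95% interval lay within 1 log2 unit of 0 for 33 of 37 genes (89.2%, against 98.8% of all genes) and within 0.5 for 17 (45.9%, against 84.3%). Of the 37 genes, 36 had a mean above that of the median gene. No comparison was made with genes of similar intensity.

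IgG replicates 1 and 3 were at the ends of this variation. IgG replicate 1 was the highest of the 8 tumours in 18 of 37 matrix genes (48.6%), while it was the highest in 14.8% of all genes. IgG replicate 3 was the lowest in 14 of 37 (37.8%), against 11.2% of all genes. In 32 of 37 genes IgG replicate 1 lay above IgG replicate 3, with a median gap of 0.51, whereas 46.1% of all genes did so. The gap was 1.79 for Hspg2, 1.502 for Fmod, 1.46 for Vcan, 1.44 for Spp1 and 1.31 for Fbn1. The exceptions were Matn2 (-1.13), Fbln1 (-0.46), Ctgf (-0.23), Prelp (-0.22) and Fbln5 (-0.04).

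**Figure D3:**
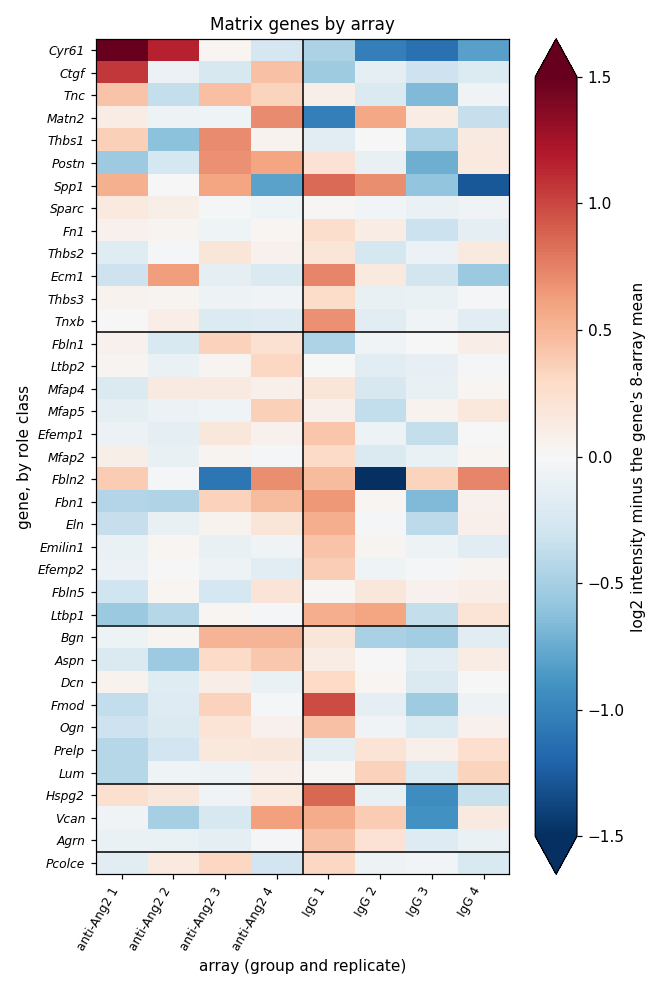
log2 intensity of each of the 37 matrix genes (rows, by role class, in the order of their differences) minus the gene's mean over the 8 arrays (columns, anti-Ang2 left of the line, IgG right); red is above and blue below the mean, and the scale ends at 1.5 units. IgG replicate 1 is the highest column in 18 rows and IgG replicate 3 the lowest in 14.

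The role classes took different orders over the anti-Ang2 tumours. Small leucine-rich proteoglycans had list means of -0.25 and -0.21 in anti-Ang2 replicates 1 and 2 and of 0.22 and 0.16 in replicates 3 and 4, relative to the mean of all 8 arrays. Adhesive and matricellular glycoproteins, by contrast, had their highest mean, 0.32, in anti-Ang2 replicate 1. Elastic fibre genes ranged from -0.14 in IgG replicate 2 to 0.27 in IgG replicate 1, and large proteoglycans from -0.68 in IgG replicate 3 to 0.62 in IgG replicate 1.

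Some cell type marker lists had their highest or lowest mean in IgG replicates 1 or 3, and others did not. Their part in the values above was not tested. Fibrillar and type VI collagen chains had list means of 0.60 in IgG replicate 1 and -0.54 in IgG replicate 3, the same ends as the matrix genes; Col1a1 stood at 10.65 and 8.08 there. Macrophage markers were highest in IgG replicate 1 (0.36) and lowest in IgG replicate 3 (-0.20) and IgG replicate 2 (-0.19), skeletal muscle (2.38) and adipocyte markers (0.68) were highest in IgG replicate 1, and melanocytic genes were lowest there (-0.37) and highest in IgG replicate 3 (0.16). Fibroblast markers were highest in anti-Ang2 replicate 1 (0.19) and lowest in IgG replicate 3 (-0.26). Skeletal muscle markers were lowest in anti-Ang2 replicate 4 (-1.15). Pericyte and smooth muscle markers were highest there (0.39) and lowest in IgG replicate 2 (-0.28). Endothelial markers were highest in anti-Ang2 replicate 3 (0.22) and lowest in IgG replicate 2 (-0.21). Keratinocyte markers were highest in IgG replicate 2 (0.41) and lowest in IgG replicate 1 (-0.19). Schwann cell markers were highest in IgG replicate 4 (0.14). Without IgG replicate 1, 29 of 37 matrix genes had a positive difference, with a median of 0.09. Without IgG replicate 3, 13 did, with a median of -0.06.

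**Figure D4:**
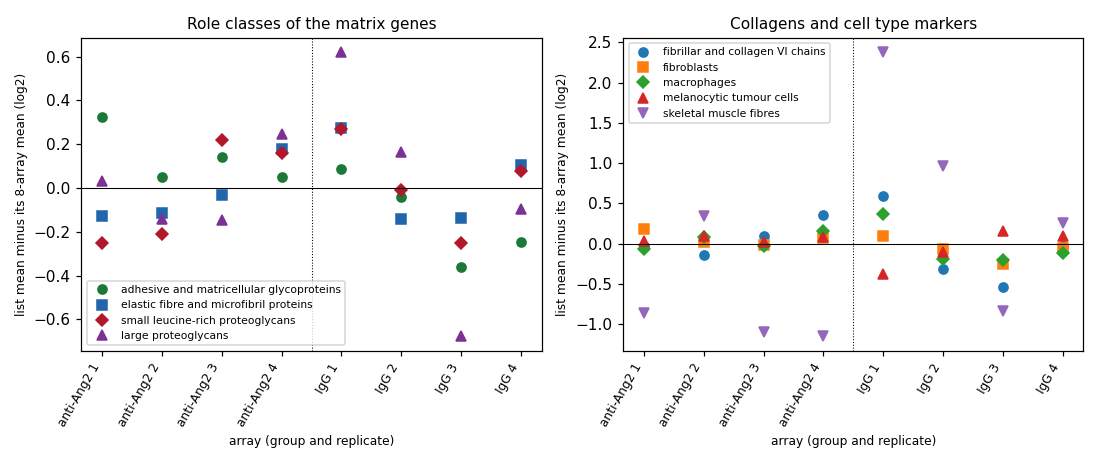
Mean of each gene list on each array minus its mean over the 8 arrays (log2, vertical axis), for 4 role classes of matrix genes (left) and for collagens and cell type markers (right); each point is 1 list on 1 array. Large proteoglycans reach 0.62 in IgG replicate 1 and -0.68 in IgG replicate 3, and skeletal muscle markers reach 2.38 in IgG replicate 1.

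Further matrix genes outside the 37 gave no called gene either. Of 39 other matrix glycoproteins and proteoglycans measured, 18 were higher and 21 lower, with a median of -0.01. At an unadjusted limma p under 0.05 there were 5 (12.8%, against 7.09% of all genes). Of these 1 was higher and 4 were lower, where 4.09% of all genes were higher and 3.00% lower at that p. Ltbp4, another latent TGF-beta binding protein, stood at 6.58, 6.55, 6.98 and 7.02 in anti-Ang2 replicates 1 to 4 and at 7.88, 7.40, 6.99 and 7.33 in IgG replicates 1 to 4. As with Ltbp1, the 3 IgG tumours other than replicate 3 lay above all anti-Ang2 tumours; the difference was -0.62 (SE 0.18; limma adjusted p = 0.587). Tgfbi, a TGF-beta-induced adhesion protein, differed by -0.58 (SE 0.19) and Thbs4, a thrombospondin of muscle and tendon, by -0.77 (SE 0.30). Thbs4 was highest in IgG replicates 1 (8.54) and 2 (7.87), the tumours with the most skeletal muscle signal. In anti-Ang2 replicate 2, next by that signal (list mean 7.48), Thbs4 stood at 6.83. In IgG replicate 4, with a list mean of 7.39, it stood at 7.47. Whether muscle content bears on Thbs4 was not tested.

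Of 7 fibrillar and type VI collagen chains measured, 6 were higher and 1 lower, with a median of 0.15 and 0 at an unadjusted limma p under 0.05. Without IgG replicate 3 there were 4 higher and 3 lower, with a median of 0.03. Without IgG replicate 1 there were 7 and 0, with a median of 0.33 and 2 at that p, where 7.41% of all genes had such a p. Col5a1 differed by 0.11, Col6a2 by 0.21 and Col6a3 by 0.18. Of 15 cell surface receptors for matrix, 5 were higher and 10 lower, with a median of -0.03 (8 and 7 without anti-Ang2 replicate 1, 10 and 5 without IgG replicates 1 and 2). Cd47, the thrombospondin receptor, was the 1 receptor of 15 whose groups did not overlap, where 3.74% of all genes had such groups. It stood between 9.61 and 9.95 in anti-Ang2 and between 9.16 and 9.44 in IgG tumours (0.38, SE 0.10, limma adjusted p = 0.567). Itgb5, an integrin subunit that pairs with alpha V, differed by -0.29 (SE 0.13) and Sdc1, syndecan-1, by 0.15 (SE 0.09).

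Among lists of the cells that make or border matrix, 0 genes passed adjustment, and single tumours moved most of these counts. Fibroblast markers were higher in 10 of 11 (median 0.18, and 0.08 without anti-Ang2 replicate 1), with Pdgfrb at 0.47, Thy1 at 0.30 and Lrrc15 at 0.27. Pericyte and smooth muscle markers were higher in 8 of 10 (median 0.16; Acta2 0.58, Tagln 0.40, Cnn1 0.16), but in 5 of 10 without anti-Ang2 replicate 4 (median 0.04) and in 6 of 10 without IgG replicate 2 (median 0.06). Endothelial markers were higher in 8 of 10 (median 0.21; Plvap 0.43, Pecam1 0.38, Robo4 0.22). Macrophage markers were higher in 6 of 10 (median 0.0049; Mrc1 0.91, Mertk -0.60, Cd68 0.42), in 4 of 10 after median centring or without IgG replicate 3, and in 9 of 10 without IgG replicate 1 (median 0.19). Melanocytic genes were higher in 7 of 10 (median 0.13; Tyrp1 0.22, Gpr143 0.25, Trpm1 0.19), but the median turned to -0.04 without IgG replicate 1 (4 of 10 higher) and to -0.13 without IgG replicates 1 and 2 (2 of 10 higher). Skeletal muscle markers were lower in 12 of 12 (median -1.45, and -0.85 without IgG replicate 1; Eno3 -1.27, Myh1 -1.32, Myh2 -1.08) and adipocyte markers in 6 of 9 (median -0.07, and 0.03 without IgG replicate 1; Car3 -2.05, Adipoq -0.22, Cfd -0.33). Keratinocyte markers were lower in 5 of 9 (median -0.05, and 0.02 without IgG replicate 2; Sfn 0.53, Krt1 -0.39, Krt14 -0.16) and Schwann cell markers in 5 of 10 (median -0.01, and 0.03 without anti-Ang2 replicate 2; Dhh -1.10, Mbp -0.28).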

How the data were processed

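RNA of 8 tumours was measured on Affymetrix whole-transcript arrays, per the labels' protocols. The authors deposited an intensity on a linear scale for each probe set, which was treated here as normalized. Background correction, summarization and normalization are not given in the sources used here. The deposited ratio or fold is anti-Ang2 over IgG group means, per the file header. The header of the deposited p-value names no test and no adjustment. For Cyr61, Ctgf and Bgn the deposited p-value equals the unadjusted one of Welch's test on linear intensities, run here as an alternative. The deposited ratio and p-value are printed for Cyr61 alone. Of 24648 probe sets, 5 with a missing value were left out, and the 22840 that named 1 gene were tested. For 2306 probe sets the gene annotation ends mid-text, so further genes may be missing.

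The log2 of the intensities was compared by limma 3.58.1 (lmFit and eBayes, no covariate) in R 4.3.3, with Benjamini-Hochberg adjustment over all genes and a threshold of 0.05. The number of arrays, 4 per group, limits the precision: the median SE was 0.15 for the 37 genes. Intervals come from the fit. Exact permutation tests use all 70 assignments. The fit was tested on simulated data with noise independent between genes and planted differences larger than that of any of the 37 genes. It was not tested on differences of the size seen here. Alternatives were other scalings, filters, variance models, array weights, a replicate block, Welch's test on linear values and each array left out; leaving out IgG replicates 1 and 2 together was added after the values were seen.

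The members and lists were chosen with earlier results of these data known. Values on every array are given for members whose groups did not overlap or with an unadjusted p under 0.05, and for the 3 with the largest moderated t in each role class; of each other list the 3 with the largest moderated t are named, except 1 gene that is not reported here. Spp1, Fbln2, Atf3, Fos, Egr1, Jun, Egr3, Col1a1 and the genes with the largest gap between IgG replicates were singled out after their values were seen. Promoter sequences are from RefSeq (GRCm38.p6), matched by symbol. Symbols are those of the array annotation.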

Additional observations from a re-analysis of the deposited data

Results flagged for a closer look

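In 3 of 74 groups of 4 tumours, 1 for each of 37 genes and each antibody, 1 tumour lay apart from the others by Dixon's test, where chance gives about 1 in 20. Tnc was low in anti-Ang2 replicate 2 (7.54, with the others between 8.22 and 8.35). Tnxb was high in IgG replicate 1 (6.79, with the others between 5.94 and 6.05), the tumour with the highest skeletal muscle and collagen signal. Mfap5 was high in anti-Ang2 replicate 4 (7.44, with the others between 6.94 and 7.02).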

How the results depend on the processing

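No matrix gene had an adjusted p under 0.05 under any alternative run, and the differences of Cyr61, Ctgf, Bgn and Ltbp1 kept their direction in all 18. Of these 18, an unadjusted p under 0.05 held for Cyr61 in 17, Bgn in 13, Ctgf in 11 and Ltbp1 in 9. Over all genes, 0 were called, or 0 to 1 with an array left out (1 without anti-Ang2 replicate 2). The 4 matrix genes at an unadjusted p under 0.05 (7.09% of all genes) became 2 with array weights (7.3% of all genes) and 0 with Welch's test on linear intensities (5.05%), and 2 to 5 with an array left out (2 without anti-Ang2 replicate 1 or IgG replicate 2), where 5.01 to 8.81% of all genes had such a p. The median difference ranged from -0.06 to 0.09 with an array left out. Pcolce turned to -0.0072 after median centring and ranged from -0.10 to 0.11 with an array left out, Vcan from -0.40 to 0.085 and Hspg2 from -0.015 to 0.58. Without IgG replicates 1 and 2 together, Vcan was 0.34 and Agrn 0.056. The cause of these moves was not tested. With the replicate number as a block, 4 matrix genes had an unadjusted p under 0.05 (Cyr61, Ctgf, Bgn and Tnc, without Ltbp1), where 7.18% of all genes did. Over all genes, the deviations of same-numbered tumours from their group means correlated at -0.05 to 0.08. Whether such tumours shared anything beyond the number was not tested. The spread between 4 tumours bounds the change within 0.5 log2 units for 17 of 37 genes.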
